A study of Mus musculus with 2 samples.

Results

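The variable (V) segments of the 4 mouse T cell receptor loci were followed across T cells of the inflamed and recovering colon. The members were all genes of the deposited feature list whose symbol begins with Trav, Trbv, Trdv or Tcrg-V, which gave 175 of 32285 genes. They comprised 128 Trav segments of the alpha chain, 35 Trbv segments of the beta chain, 6 Trdv segments of the delta chain and 6 Tcrg-V segments of the gamma chain. The annotation lists 34 of the 175 as pseudogenes. In GRCm38 (mm10) the Trav segments lie on chromosome 14 from base 52427928 to 53977678, the Trdv segments on chromosome 14 from 53881612 to 54149294, the Trbv segments on chromosome 6 from 40891229 to 41558452 and the Tcrg-V segments on chromosome 13 from 19178024 to 19340454. Usage was described over the cells that the authors' deposited metadata place in clusters 2 and 4, which numbered 1806 in the transgenic (TG) library and 944 in the wild-type (WT) library.

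Each genotype was represented by 1 droplet library of 5′ single-cell RNA, made from live CD45+ cells sorted from colon lamina propria. The TG library came from C57BL/6 mice labelled E4BP4 transgenic, in which overexpression is described as restricted to macrophages; the promoter used is not given in the sources used here. The WT library came from C57BL/6 wild-type mice. Mice of both genotypes were aged 8 weeks, had received 2.0% dextran sulfate sodium (DSS, a chemical that injures the colon lining) in their water over 7 days, and were killed on day 14, after 7 further days without it. How many animals were pooled in a library is not stated, so no difference below has a replicate check, and no test between genotypes was possible. Intervals are 95% intervals that cover counting error only, exact binomial for shares and exact Poisson or conditional binomial for levels and ratios. Where a count was 0, the limit given is instead 3 cells over the cells counted, and it bounds the share of cells with a UMI, not the share that expresses the gene.

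A T cell receptor is a heterodimer of alpha and beta chains or of gamma and delta chains. During T cell development the RAG recombinase joins a V segment to a joining segment, and in beta and delta chains to a diversity segment between them, so that most T cells carry a receptor of their own. Most alpha-beta T cells read peptides on class I or class II MHC with the help of CD8 or CD4, whereas some gamma-delta and invariant alpha-beta T cells use a fixed V segment and sit in mucosal tissue as innate-like cells. In the mouse gut, the gamma chain from Tcrg-V7 is typical of intraepithelial lymphocytes, and the pair of Tcrg-V6 and Trdv4 is typical of interleukin-17-producing gamma-delta T cells.

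The label of the transgenic library was checked with Nfil3, the gene that encodes E4BP4. In the metadata cluster with the highest C1q complement level, a macrophage feature, Nfil3 was at 73.8 CPM (UMIs, or counted transcripts, per 1000000 UMIs; 95% interval 65.3 to 83.1) in TG cells and 84.4 CPM (72.8 to 97.3) in WT cells. It was not higher in the TG library there or over all metadata cells (73.3 CPM in TG cells, 121 CPM in WT cells), so "TG" below means the library labelled transgenic. A median of 2880 UMIs was recorded per cell of clusters 2 and 4 in TG and 3249 in WT. The libraries shared 142 cell barcodes, 6 of them within clusters 2 and 4. All 8 genes of the T cell marker list were detected in both libraries, and at least 1 of them was seen in 90.1% of TG and 89.5% of WT cells. Of the other lists, plasma cell genes (4 of 4 detected) were seen in 94.5% of TG and 94.8% of WT cells, more often than the T cell list. The share of cells with a list gene therefore does not by itself identify T cells here. Macrophage and monocyte genes were seen in 37.2% of TG and 45.0% of WT cells, and epithelial genes in 34.8% and 43.8%. Type 2 innate lymphoid genes were seen in 27.2% and 31.6%, and B cell genes in 19.2% and 21.3%. Neutrophil genes (3 of 3 detected) were seen in 5.04% of TG and 60.5% of WT cells. Natural killer genes (4 of 4 detected) were seen in 25.5% of TG and 15.5% of WT cells. The part of these other genes in the differences below was not tested.

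A finer clustering deposited with the metadata split these cells further. Whether V segments were among the genes the authors clustered on is not given in the sources used here, so values by cluster are descriptions. Finer cluster 4 held 716 TG and 288 WT cells and was rich in Cd8a, which was detected in 58.2% of TG and 46.9% of WT cells. Finer cluster 8 held 351 TG and 236 WT cells, with Cd4 in 39.3% and 45.8%. Finer cluster 10 held 241 TG and 166 WT cells with both coreceptors present across the cluster (Cd4 in 21.2% of TG and 27.1% of WT cells, Cd8b1 in 30.3% and 34.3%). Finer cluster 6 held 488 TG and 251 WT cells and went against a T cell label: only 49.2% of TG and 47.4% of WT cells had a CD3 UMI, and genes of the type 2 innate lymphoid list (Gata3, Il1rl1, Areg, Calca, Klrg1) were seen in 42.4% and 43.8%, at a summed level of 1191 CPM in TG and 2183 CPM in WT. The same list was seen in 36.2% of TG and 39.8% of WT cells of finer cluster 8, at 785 and 937 CPM. Cells were also classed by coreceptor detection: any cell with Trdc, the delta constant gene, formed the Trdc class (207 TG, 128 WT), and the rest were split into Cd4 (223 TG, 176 WT), Cd8 (515 TG, 176 WT), both (13 TG, 7 WT) and none (848 TG, 457 WT).

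The V segments that carry the findings are shown by the last 60 bases of their V exon, the end that is joined during recombination, with the codon of the conserved cysteine that opens the third complementarity-determining region in capitals. All are on the plus strand of GRCm38 (mm10) and were read from the reference transcripts. The 3 Trbv13 copies lie close together on chromosome 6, with Trbv12-2 between Trbv13-1 and Trbv13-2. They were compared because only Trbv13-1 differed between the libraries past the fold used below.
Trbv13-1 (chr6:41116409-41116468): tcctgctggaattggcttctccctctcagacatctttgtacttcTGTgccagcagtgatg
Trbv13-2 (chr6:41121773-41121832): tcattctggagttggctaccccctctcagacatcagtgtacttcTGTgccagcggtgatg
Trbv13-3 (chr6:41130526-41130585): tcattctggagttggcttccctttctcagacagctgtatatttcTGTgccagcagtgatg
Trbv12-2 and Trbv12-1 had the highest ratios of Cd8 over Cd4 usage among the 15 Trbv segments with at least 20 cells over these classes, Trbv20 was on the Cd4 side in both libraries, and Trav4-4-dv10 is the alpha segment most often found with Trbv20.
Trbv12-1 (chr6:41114008-41114067): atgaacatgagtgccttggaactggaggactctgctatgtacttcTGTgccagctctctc
Trbv12-2 (chr6:41119305-41119364): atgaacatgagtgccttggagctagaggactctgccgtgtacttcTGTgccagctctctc
Trbv20 (chr6:41188918-41188977): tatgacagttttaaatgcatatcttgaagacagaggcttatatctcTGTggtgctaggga
Trav4-4-dv10 (chr14:53684118-53684177): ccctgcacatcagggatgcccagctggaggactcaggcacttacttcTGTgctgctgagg
Tcrg-V6, Tcrg-V7, Tcrg-V1 and Trdv4 are the gamma and delta segments that the results below describe cell by cell.
Tcrg-V6 (chr13:19190870-19190929): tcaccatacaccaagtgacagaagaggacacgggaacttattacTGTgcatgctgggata
Tcrg-V7 (chr13:19178433-19178492): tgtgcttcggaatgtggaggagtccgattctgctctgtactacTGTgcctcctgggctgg
Tcrg-V1 (chr13:19340395-19340454): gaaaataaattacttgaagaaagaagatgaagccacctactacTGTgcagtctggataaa
Trdv4 (chr14:54075456-54075515): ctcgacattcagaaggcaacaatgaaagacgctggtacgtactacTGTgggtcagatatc
Trav14n-3, Trav8d-1 and Trav13n-3 were the alpha segments most often found with Trbv13-1 in TG cells, and Trav10n the one most often found with Trbv12-2.
Trav14n-3 (chr14:53370516-53370575): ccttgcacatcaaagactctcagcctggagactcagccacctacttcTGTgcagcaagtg
Trav8d-1 (chr14:52778936-52778995): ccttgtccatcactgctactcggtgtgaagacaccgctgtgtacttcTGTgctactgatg
Trav13n-3 (chr14:53337580-53337639): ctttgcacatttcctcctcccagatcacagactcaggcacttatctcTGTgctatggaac
Trav10n (chr14:53122551-53122610): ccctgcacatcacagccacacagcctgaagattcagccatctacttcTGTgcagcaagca
Aligned on the cysteine codon, Trbv13-1 differed from Trbv13-2 at 8 of 60 bases and from Trbv13-3 at 10 of 60, Trbv12-1 differed from Trbv12-2 at 4 of 60, and Tcrg-V6 differed from Tcrg-V7 at 30 of 59.

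Of the 175 segments, 109 had at least 1 UMI in cells of clusters 2 and 4, namely 75 Trav, 23 Trbv, 5 Trdv and 6 Tcrg-V. The other 66 had none in either library, of which 25 were pseudogenes and 41 were annotated as functional. A V UMI of any locus was found in 77.7% of TG and 83.2% of WT cells. The segments summed to 8562 UMIs in TG and 6541 UMIs in WT.

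Beta-chain segments were the most readily seen. A Trbv UMI was present in 58.0% of TG cells (55.7 to 60.3) and 57.7% of WT cells (54.5 to 60.9), a ratio of TG over WT of 1.00 (0.905 to 1.12). Trav segments were seen in 33.8% of TG and 44.0% of WT cells (ratio 0.768, 0.677 to 0.872), and Trdv segments in 12.9% and 19.9% (0.648, 0.532 to 0.789). Tcrg-V segments were seen in 22.2% of TG and 23.1% of WT cells (0.961, 0.813 to 1.14). With every cell thinned to 1000 UMIs, which left out 205 TG and 115 WT cells as too shallow, the shares were 45.7% of TG and 46.2% of WT cells for Trbv, 19.8% and 26.4% for Trav, 8.74% and 13.3% for Trdv, and 12.3% and 15.7% for Tcrg-V. As a measure of free RNA, the same UMIs were counted in metadata cluster 0, whose cells were B-like and of lower depth (median 2235 UMIs in TG, 2445 in WT). Trbv was seen in 2.64% of those TG cells and 1.45% of those WT cells, Trav in 0.671% and 0.830%, Trdv in 0.492% and 0.913%, and Tcrg-V in 0.268% and 0.373%. The shares were higher in metadata cluster 1, the cluster with the highest C1q level, whose depth was nearer to that of the T cells (median 3082 UMIs in TG, 3151 in WT). There Trbv was seen in 8.23% of TG and 4.67% of WT cells, Trav in 4.16% and 2.11%, Trdv in 1.90% and 1.96%, and Tcrg-V in 1.54% and 0.602%. All of these were below the shares in clusters 2 and 4.

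V-segment UMIs per UMI of the constant genes of the same locus were lower in TG than in WT. Trav summed to 1361 UMIs for 1157 UMIs of Trac in TG (1.18 per Trac UMI), against 1206 for 618 in WT (1.95), a ratio of TG over WT of 0.603. For Trbv over Trbc1 and Trbc2 the value was 2.22 in TG and 2.93 in WT (0.757), for Trdv over Trdc 2.28 and 4.68 (0.488), and for Tcrg-V over the 4 Tcrg-C genes 0.441 and 0.852 (0.518). TG was also lower in barcodes that the authors' metadata leave out, where the ratios of TG over WT in the same order of loci were 0.586, 0.585, 0.521 and 0.558. The exceptions among the finer clusters were Trbv in finer cluster 6 (1.44) and Tcrg-V in finer cluster 10 (1.11, from 5 TG and 1 WT UMIs), and no ratio could be given for Trdv in finer cluster 10, where WT had 0 Trdc UMIs. Whether a property of the library or of the cells set these ratios was not tested, so between genotypes usage within a locus is used below in place of levels.

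**Figure D1:**
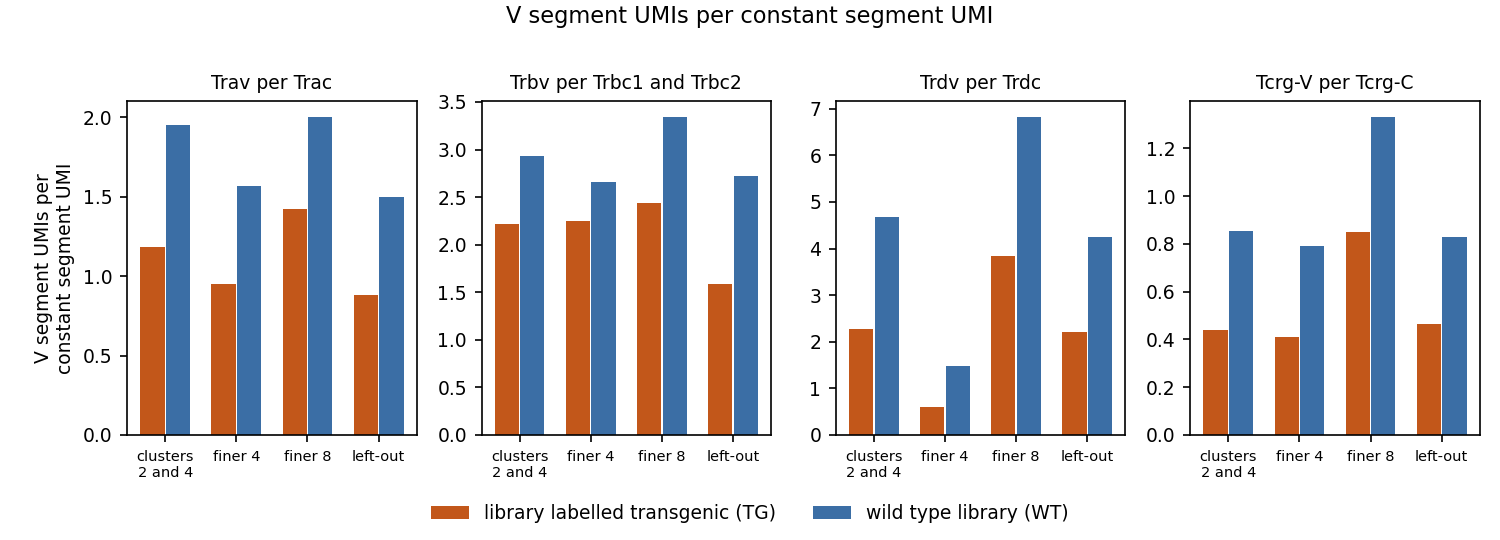
V-segment UMIs per UMI of the constant genes of the same locus (bars, vertical axis) in TG and WT cells of clusters 2 and 4, of finer clusters 4 and 8, and of barcodes outside the metadata. The TG bar is the shorter of each pair in all groups drawn, for instance 1.18 in TG and 1.95 in WT for Trav over Trac.

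On the level scale, 72 members had at least 20 UMIs over both libraries. In CPM, 5 of them were at least 1.5-fold higher in TG and 38 at least 1.5-fold lower, where 7.29% of all 10857 genes with at least 20 UMIs were higher and 6.35% lower. At 2-fold the counts were 2 higher and 16 lower, with 2.12% and 2.01% of all genes as the background. The median log2 ratio of TG over WT was -0.69 for these members and 0.0025 for all genes. By share of cells, 1 of 59 members was at least 1.5-fold higher and 17 lower, with 4.26% and 8.26% of 10754 genes as the background.

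Usage was taken from the dominant segment of each cell, the segment of a locus with the most UMIs (tied cells were left out), and is the share of cells with a dominant segment of that locus. Of 46 segments with at least 20 such cells over both libraries, 8 (17.4%) were used at least 1.5-fold more in TG, 2 (4.35%) at least 1.5-fold less, and 36 lay within the fold. At 2-fold, 3 (6.52%) were higher and 0 lower. The 8 were Trbv13-1, Trbv14, Tcrg-V1, Trav14n-3, Trav7-5, Trav12-3, Trav13-2 and Trav14-2, and the 2 were Trbv2 and Trav21-dv12. The interval of the ratio lay clear of 1 for Trbv13-1 and Tcrg-V1 among these, and also for Tcrg-V6, whose ratio was within the fold. With cluster 2 or 4 taken alone, the Tcrg-V6 interval included 1 (0.652, 0.267 to 1.75, and 0.730, 0.504 to 1.06). It also included 1 in each finer cluster alone, as in finer cluster 8 (0.875, 0.602 to 1.28). It stayed clear of 1 by UMI sums (0.824, 0.701 to 0.968) and by any cell with a UMI (0.642, 0.463 to 0.891). For Tcrg-V1 the interval included 1 when any cell with a UMI was counted (1.25, 0.957 to 1.64). The same held in cluster 4 alone (1.48, 0.991 to 2.26), and both values were under the fold. The Tcrg-V1 interval also included 1 in cluster 2 alone (1.56, 0.810 to 3.31), finer cluster 6 (1.13, 0.484 to 2.79) and finer cluster 8 (3.41, 0.382 to 161).

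Trbv13-1 was the leading beta segment of the TG library, but not of the WT library. It was dominant in 140 of 1008 TG cells with a dominant Trbv (13.9%, 11.8 to 16.2) and in 24 of 535 WT cells (4.49%, 2.90 to 6.60), a ratio of TG over WT of 3.10 (2.00 to 4.99). Its UMIs numbered 711 in TG and 178 in WT. The other Trbv13 copies were closer between the libraries. Trbv13-2 was dominant in 9.23% of TG and 9.16% of WT cells (ratio 1.01) and Trbv13-3 in 5.26% and 6.73% (0.781). Every 50-base window of Trbv13-1 is unique among the reference V transcripts, and 99.7% of those of Trbv13-2 and Trbv13-3.

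The other leading Trbv segments were close in both libraries. In TG and WT, Trbv3 made up 7.74% and 9.72% of beta usage, Trbv1 7.84% and 8.60%, and Trbv16 6.85% and 8.79%. Trbv12-2 made up 7.54% in TG and 5.42% in WT (ratio 1.39, 0.896 to 2.21), and Trbv31, the segment that lies beyond the constant genes in the opposite orientation, 4.66% and 5.79% (0.805). Trbv14 was dominant in 18 TG and 6 WT cells (1.79% and 1.12%; ratio 1.59, 0.605 to 4.90), and Trbv2 in 28 TG and 23 WT cells (2.78% and 4.30%; 0.646, 0.359 to 1.17). Because shares of a locus sum to the whole, the other Trbv segments were also taken as shares of the 868 TG and 511 WT cells without Trbv13-1. Of these 17 segments, 3 were at least 1.5-fold higher in TG (Trbv12-2 at 1.54, Trbv17 at 1.52 and Trbv14 at 1.77), 0 were lower, and each interval included 1.

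**Figure D2:**
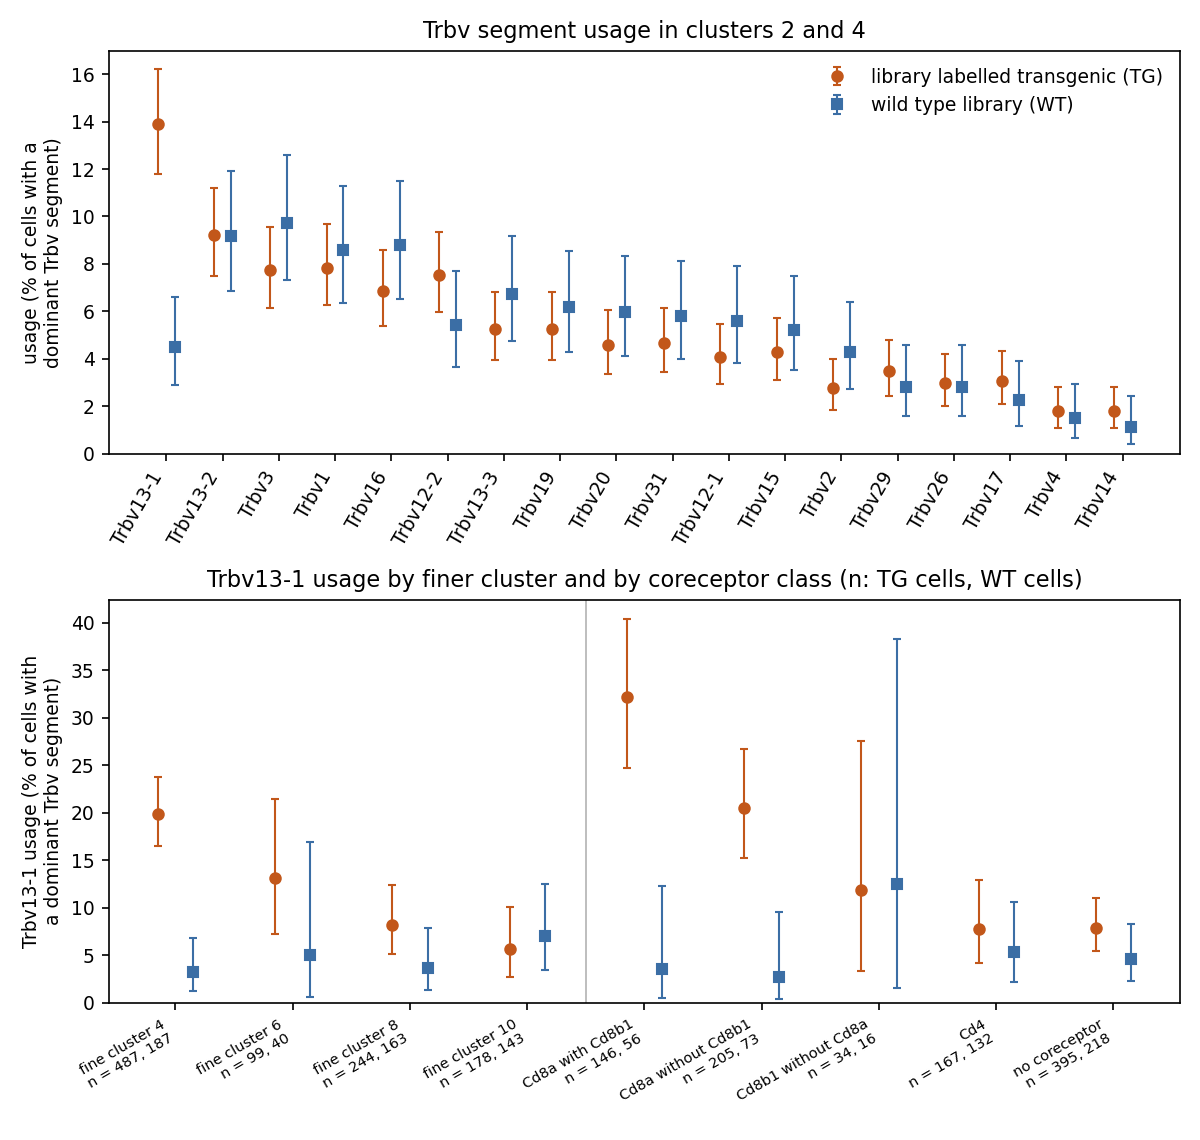
Usage of 18 Trbv segments (top; percent of cells with a dominant Trbv, TG and WT points with 95% intervals) and usage of Trbv13-1 alone by finer cluster and coreceptor class (bottom). Trbv13-1 stands at 13.9% in TG and 4.49% in WT, and in finer cluster 4 at 19.9% in TG and 3.21% in WT.

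Most TG cells with Trbv13-1 lay in the Cd8a-rich finer cluster. In finer cluster 4 it was dominant in 97 of 487 TG cells (19.9%) and 6 of 187 WT cells (3.21%), a ratio of 6.21 (2.75 to 17.3). In finer cluster 10 it was dominant in 10 of 178 TG cells (5.62%) and 10 of 143 WT cells (6.99%), a ratio of 0.803 (0.300 to 2.15). The ratio was 2.63 (0.595 to 24.0) in finer cluster 6 and 2.23 (0.862 to 6.78) in finer cluster 8. By coreceptor, it was dominant in 93 of 385 TG and 6 of 145 WT cells of the Cd8 classes (24.2% and 4.14%; ratio 5.84, 2.58 to 16.3), and in 13 of 167 TG and 7 of 132 WT cells of the Cd4 class (7.78% and 5.30%; 1.47, 0.544 to 4.35). Among cells with both Cd8a and Cd8b1, the 2 chains of the conventional CD8 coreceptor, it was dominant in 47 of 146 TG cells (32.2%) and 2 of 56 WT cells (3.57%).

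Other transcripts of the Trbv13-1 cells were then compared. Gzma, which encodes the cytotoxic granule protease granzyme A and belongs to the natural killer list, was detected in 56 of the 140 TG cells (40.0%, 31.8 to 48.6) and in 0 of the 24 WT cells, which allows a share of up to 12.5% (3 cells of 24). In cells with another dominant Trbv it was detected in 104 of 868 in TG (12.0%) and 28 of 511 in WT (5.48%). Cd8a was detected in 65.0% of the TG and 16.7% of the WT Trbv13-1 cells, against 33.1% of TG and 27.2% of WT cells with another Trbv. Of the beta constant genes, Trbc1 was detected in 69 and Trbc2 in 53 of the 140 TG cells, whereas among TG cells with another Trbv the counts were 298 and 470 of 868. In WT, Trbc1 was seen in 5 and Trbc2 in 10 of the 24 Trbv13-1 cells. The groups compared here were not matched by finer cluster or coreceptor class. Genes of the natural killer list were seen in 44.4% of TG and 38.2% of WT cells of finer cluster 4, where most TG Trbv13-1 cells lay. In finer cluster 10 they were seen in 7.88% and 4.82%. Whether cluster or class membership had a part in the Gzma and Cd8a counts was not tested.

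A pair was defined in cells with both a dominant Trav and a dominant Trbv, which were 430 in TG and 307 in WT. They held 293 distinct pairs in TG and 256 in WT. The number of distinct pairs per cell depends on how many cells are drawn, and the libraries were not brought to equal cell numbers, so it is not compared. In all, 89 pairs occurred in both libraries. In TG, 5 pairs reached 5 or more cells and together held 40 cells. In WT, 1 pair did so, with 6 cells. Joining segments were not resolved in these counts and the junction sequence was not analysed here, so cells that share a pair cannot be told to be one clone.

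Of the 140 TG cells with Trbv13-1, 47 had a dominant Trav, of 22 kinds. Trav14n-3 was the partner in 8, Trav8d-1 in 7 and Trav13n-3 in 6, so that these 3 segments made up 21 of the 47. In TG cells with another Trbv, the same 3 segments were the partner in 8 of 383 cells. In WT, 0 of the 17 Trbv13-1 cells with a Trav had any of the 3, which allows a share of up to 17.6%, and their Trav were of 15 kinds. The Trav8d-1 pair lay wholly in finer cluster 4, with Cd8b1 detected in 7 of 7 cells, and the Trav13n-3 pair had Cd8a in 4 of 6 cells, Cd8b1 in 0 and Gzma in 5. The Trav14n-3 pair was spread over finer clusters 4 (4 cells), 8 (3 cells) and 6 (1 cell). When each distinct pair was counted 1 time per library, whatever its number of cells, the ratio of Trbv13-1 usage was 1.28 (0.635 to 2.66). It covers only cells with both a dominant Trav and a dominant Trbv, unlike the ratio of 3.10 over all cells with a dominant Trbv. Of the Trbv13-1 cells, 47 of 140 in TG and 17 of 24 in WT had a dominant Trav. With the cells of the 3 pairs left out, the ratio over all cells with a dominant Trbv was 2.69 (1.72 to 4.36). Trbv13-1 cells without a dominant Trav stayed in, since their pair is not known. How far repeated pairs account for the higher usage in TG was therefore not measured.

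Among the other pairs, Trav4-4-dv10 with Trbv20 led in both libraries, with 10 TG and 6 WT cells. It made up 10 of the 20 TG and 6 of the 20 WT Trbv20 cells with a Trav. Of its cells, 9 TG and 5 WT cells lay in finer cluster 8, 9 and 5 had a UMI of Maf, a transcription factor of several effector and regulatory T cell types, and 3 and 4 had a UMI of Foxp3, the factor that defines regulatory T cells. None of them fell in a Cd8 class. Trav10n with Trbv12-2 was found in 9 TG cells and in 0 of the 307 WT cells with both chains (up to 0.977% allowed), and all 9 had both Cd8a and Cd8b1, with Gzma in 7.

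Several Trbv segments were tilted to the same side in both libraries when Cd8 cells were set against Cd4 cells. Trbv12-2 was dominant in 46 of 385 TG Cd8 cells and 1 of 167 TG Cd4 cells, with a 95% interval of the ratio of Cd8 over Cd4 of 3.41 to 805, and in 13 of 145 and 1 of 132 in WT (ratio 11.8, 1.78 to 503). Trbv12-1, which differs from it at 4 of the 60 bases shown, gave 20 and 2 cells in TG (4.34, 1.05 to 38.3) and 18 and 1 cells in WT (16.4, 2.59 to 683). The opposite tilt was seen for Trbv20, with 5 Cd8 and 19 Cd4 cells in TG (0.114, 0.0333 to 0.316) and 4 and 11 cells in WT (0.331, 0.0769 to 1.12). Trbv2 also lay on the Cd4 side, at 0.380 (0.117 to 1.20) in TG and 0.331 (0.0769 to 1.12) in WT, with intervals that included 1.

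For Trbv13-1 and Trbv26 the interval of the ratio lay clear of 1 in TG and included 1 in WT, and the difference between the libraries was not tested. The ratio of Cd8 over Cd4 for Trbv13-1 was 3.10 (1.73 to 6.05) in TG and 0.780 (0.217 to 2.71) in WT. Trbv26 was at 0.186 (0.0586 to 0.515) in TG and 1.82 (0.389 to 11.3) in WT. Of the alpha segments, Trav4-4-dv10 was dominant in 4 of 198 Cd8 and 11 of 109 Cd4 cells of TG, and in 0 of 99 and 12 of 106 of WT. Trav12-2 was seen in 10 Cd8 and 3 Cd4 cells of TG and in 9 and 0 of WT, and Trav7-5 had ratios of 1.84 in TG and 1.07 in WT. Only 15 Trbv, 3 Trav and 3 Tcrg-V segments had at least 20 cells over these classes, and the Cd4 classes held 3 TG and 4 WT cells with a dominant Tcrg-V, too few to compare.

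**Figure D3:**
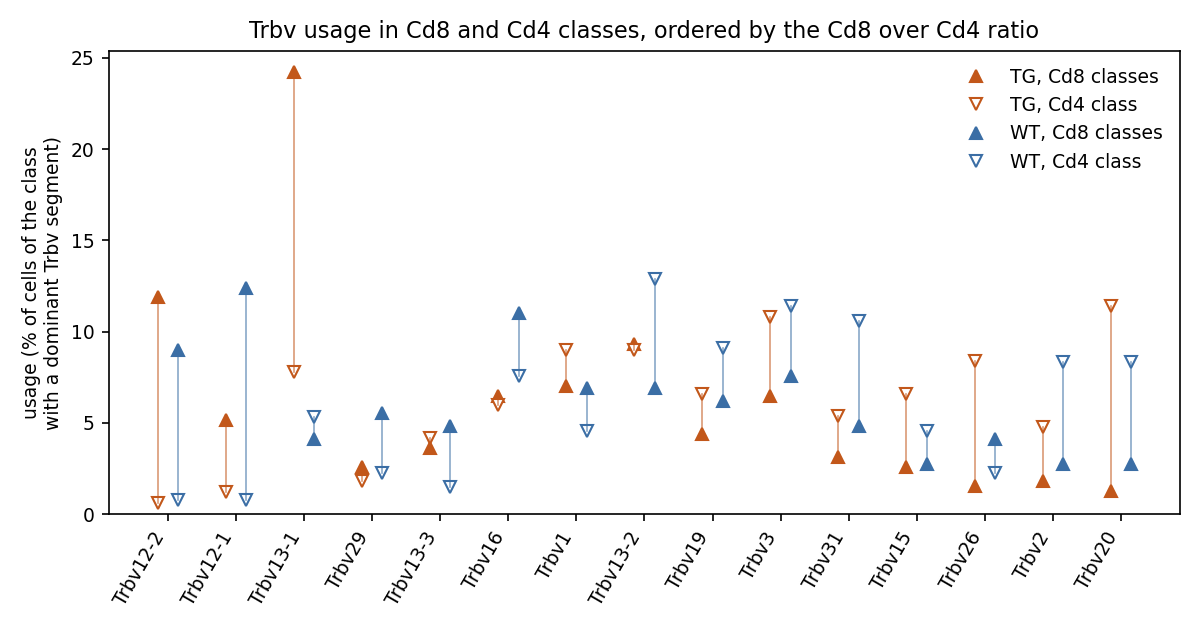
Usage of 15 Trbv segments in Cd8 cells (filled upward triangles) and Cd4 cells (open downward triangles), as percent of cells of that class with a dominant Trbv, for TG and WT. Trbv12-2 and Trbv12-1 stand higher in Cd8 cells of both libraries, Trbv20 and Trbv2 stand higher in Cd4 cells of both, and Trbv13-1 reaches 24.2% in TG Cd8 cells and 4.14% in WT Cd8 cells.

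Among the gamma segments, Tcrg-V1 was dominant in the most cells in TG and Tcrg-V6 in WT. The order depends on the measure: by UMIs Tcrg-V6 was above Tcrg-V1 in TG (310 and 262 UMIs) and also in WT, and by cells with a UMI Tcrg-V1 led in TG (188 cells, 85 with Tcrg-V6) and in WT (82 and 72). Tcrg-V1 was dominant in 138 of 372 TG cells (37.1%) and 47 of 203 WT cells (23.2%), a ratio of 1.60 (1.14 to 2.28). Tcrg-V6 was dominant in 82 TG cells (22.0%) and 66 WT cells (32.5%; ratio 0.678, 0.484 to 0.952). Shares of the gamma locus sum to the whole, so the ratios of its segments are not independent of each other. Tcrg-V7 was dominant in 69 TG and 48 WT cells (18.5% and 23.6%; 0.784), Tcrg-V4 in 62 and 32 (16.7% and 15.8%; 1.06) and Tcrg-V5 in 13 and 8 (3.49% and 3.94%; 0.887). Of the delta segments, Trdv4 dominated in both libraries, with 162 of 231 TG cells (70.1%) and 124 of 187 WT cells (66.3%). Trdv2-2 made up 13.0% of TG and 14.4% of WT cells, Trdv1 11.3% and 13.9%, and Trdv5 5.63% and 5.35%.

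Tcrg-V6 and Trdv4 occurred together in finer cluster 8, in cells that expressed genes known from interleukin-17-producing gamma-delta T cells. There Tcrg-V6 made up 80.0% of gamma usage in TG and 91.4% in WT, and Trdv4 made up 93.1% and 95.5% of delta usage. Over clusters 2 and 4, a Tcrg-V6 UMI was found in 85 TG and 72 WT cells, of which 73 and 64 had a Trdv4 UMI as well. Il17a, which encodes the cytokine interleukin-17A, was detected in 45 of the 85 TG and 48 of the 72 WT cells. Cd163l1, a scavenger receptor gene of this cell type, was detected in 71 TG and 59 WT cells, and the kinase gene Blk in 49 and 44. Cd8a was seen in 5 of the TG and 1 of the WT cells, and Trac in 7 of each.

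Tcrg-V7 marked a different population, in finer cluster 4. A Tcrg-V7 UMI was found in 84 TG and 56 WT cells, and Cd8a was detected in 61 and 40 of them but Cd8b1 in only 1 and 1. Gzma was detected in 47 TG and 24 WT cells, and Il17a in 0 and 1. A Trbv UMI was also present in 33 TG and 22 WT of these cells. Within finer cluster 4, Tcrg-V7 made up 27.5% of gamma usage in TG and 40.9% in WT (ratio 0.671, 0.451 to 1.01), and Tcrg-V1 made up 49.4% and 32.7% (1.51, 1.03 to 2.26).

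Tcrg-V1 and Tcrg-V4 transcripts were frequent in cells that also had beta-chain transcripts. Of the 188 TG and 82 WT cells with a Tcrg-V1 UMI, 127 and 45 had a Trbv UMI and 43 and 30 had a Trdc UMI. Of the 90 TG and 51 WT cells with a Tcrg-V4 UMI, 58 and 32 had a Trbv UMI. Most of these detections were shallow, with 1 UMI in 142 of the 188 TG Tcrg-V1 cells, whereas 18 of the 85 TG Tcrg-V6 cells had only 1. Within the Trdc class, where the delta constant gene was seen, Tcrg-V1 was dominant in 22 of 136 TG and 5 of 94 WT cells (16.2% and 5.32%; ratio 3.04, 1.12 to 10.3). Tcrg-V5, the gamma segment typical of skin gamma-delta T cells in the mouse, was seen in 21 TG and 21 WT cells. Of these, 7 TG and 14 WT cells had a Tcrg-V6 UMI too, and 12 and 18 had Trdv4.

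**Figure D4:**
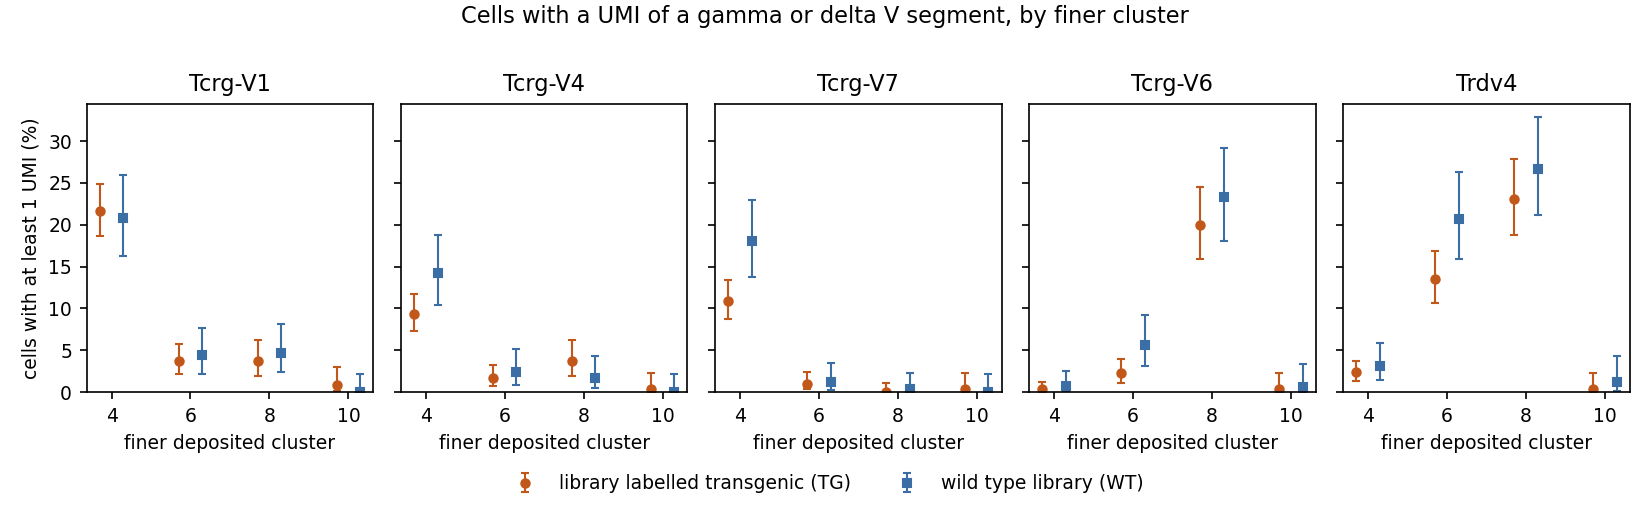
Percent of cells with at least 1 UMI of Tcrg-V1, Tcrg-V4, Tcrg-V7, Tcrg-V6 and Trdv4 in finer clusters 4, 6, 8 and 10 of TG and WT, with 95% intervals. Tcrg-V7 and Tcrg-V1 stand in finer cluster 4 (Tcrg-V7 in 10.9% of TG and 18.1% of WT cells), Tcrg-V6 in finer cluster 8 (19.9% and 23.3%), and Trdv4 in finer clusters 8 and 6.

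In finer cluster 6, most Trdv4 cells had no UMI of Tcrg-V6, the usual gamma partner of Trdv4. It was detected there in 66 of 488 TG cells (13.5%) and 52 of 251 WT cells (20.7%), at a median depth for the cluster of 1232 UMIs in TG and 1177 in WT, and made up 84.4% and 88.1% of its delta usage. Of these Trdv4 cells, 7 TG and 11 WT cells had Tcrg-V6, 9 and 11 had Trdc, and 26 and 26 had any CD3 UMI. In finer cluster 8, by contrast, 81 of 81 TG and 61 of 63 WT cells with Trdv4 had a CD3 UMI. Trdc was seen in 65 and 46 of them. Finer cluster 8 was deeper (median 2932 UMIs in TG, 3482 in WT). Whether depth had a part in the Tcrg-V6, Trdc and CD3 counts was not tested. Gata3, the transcription factor gene of type 2 innate lymphoid and type 2 helper cells, was detected in 24 of the 66 TG and 23 of the 52 WT Trdv4 cells of finer cluster 6, and Il1rl1, the gene of the interleukin-33 receptor, in 18 and 15. In cells of that cluster without Trdv4, Gata3 was seen in 25.1% of TG and 24.6% of WT cells and Il1rl1 in 16.1% and 15.6%. The Trdv4 cells were deeper (median 1810 UMIs in TG, 1946 in WT) than those without Trdv4 (1166 and 1075), and whether depth had a part in these counts was not tested.

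Usage of the alpha chain was spread over many segments. The 5 leading Trav segments held 20.2% of dominant TG cells and 20.1% of WT cells. For the 5 leading Trbv segments the shares were 45.5% and 40.7%. More Trav than Trbv segments were detected (75 and 23), so these shares do not compare how even the usage was. Trav4-4-dv10, which can serve in alpha or delta chains, was dominant in 26 of 560 TG cells (4.64%) and 21 of 388 WT cells (5.41%). Trav12-2 followed with 20 TG and 19 WT cells, Trav7-5 with 26 and 12, Trav3-3 with 20 and 14 and Trav13-1 with 21 and 12. The Trav segments past the fold rested on few cells: Trav13-2 on 18 TG and 5 WT cells (ratio 2.49, 0.893 to 8.59), Trav12-3 on 15 and 5 (2.08, 0.718 to 7.31), Trav14n-3 on 18 and 7 (1.78, 0.710 to 5.05), Trav14-2 on 14 and 6 (1.62, 0.584 to 5.13), Trav7-5 on the counts above (1.5, 0.731 to 3.27) and Trav21-dv12 on 14 and 15 (0.647, 0.289 to 1.44). Each of these intervals includes 1.

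The segments of the invariant alpha-beta lineages were rare or had no UMI. Trav1, the alpha segment of mucosal-associated invariant T cells, was dominant in 12 TG cells (2.14%) and 8 WT cells (2.06%). Among the 14 TG and 8 WT cells with a Trav1 UMI, 13 and 8 had a Trbv UMI, Blk was detected in 6 and 5, Zbtb16, the gene of the innate-like lineage factor PLZF, in 4 and 3, and Il17a in 1 and 4. Trav11 and Trav11d, the copies that give the alpha chain of invariant natural killer T cells, had 0 UMIs in each library. Their transcripts are identical over 342 bases, so that 0% of their windows are unique, and the pseudogene Trav11n, which differs from Trav11 at 8 of 343 bases, has 78.6% unique windows and had 0 TG and 1 WT UMI.
Trav11 (chr14:53519800-53519859): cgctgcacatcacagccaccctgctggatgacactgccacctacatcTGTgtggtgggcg
Trav11d (chr14:52824853-52824912): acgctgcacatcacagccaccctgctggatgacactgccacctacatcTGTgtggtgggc
These sequences are shown because a read that lies within them cannot be assigned to either copy. A count of 0 here therefore does not show that the segment was not expressed. Whether shared sequence or a lack of expression gave these counts was not tested.

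Sequence is also shared within the alpha locus at large. Part of it is present in 3 copies on chromosome 14 in C57BL/6 mice. The symbols mark the extra copies with d and n. Of 36 functional Trav segments with 0% unique 50-base windows, 35 had no UMI. Over the 108 functional Trav segments, Spearman's rho between the share of unique windows and the summed UMIs was 0.764; this is a description across genes that share libraries and sequence. The median share of unique windows was 64.6% for the 55 unmarked segments, 0.347% for the 39 d copies and 0% for the 34 n copies. Unmarked segments made up 74.6% of alpha usage in TG and 80.2% in WT, d copies 10.2% and 6.19% (ratio 1.65, 1.00 to 2.77), and n copies 15.2% and 13.7% (1.11, 0.779 to 1.60). The partners named above share sequence too: 55.8% of the windows of Trav8d-1, 53.8% of Trav14n-3 and 17.4% of Trav13n-3 are unique.

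**Figure D5:**
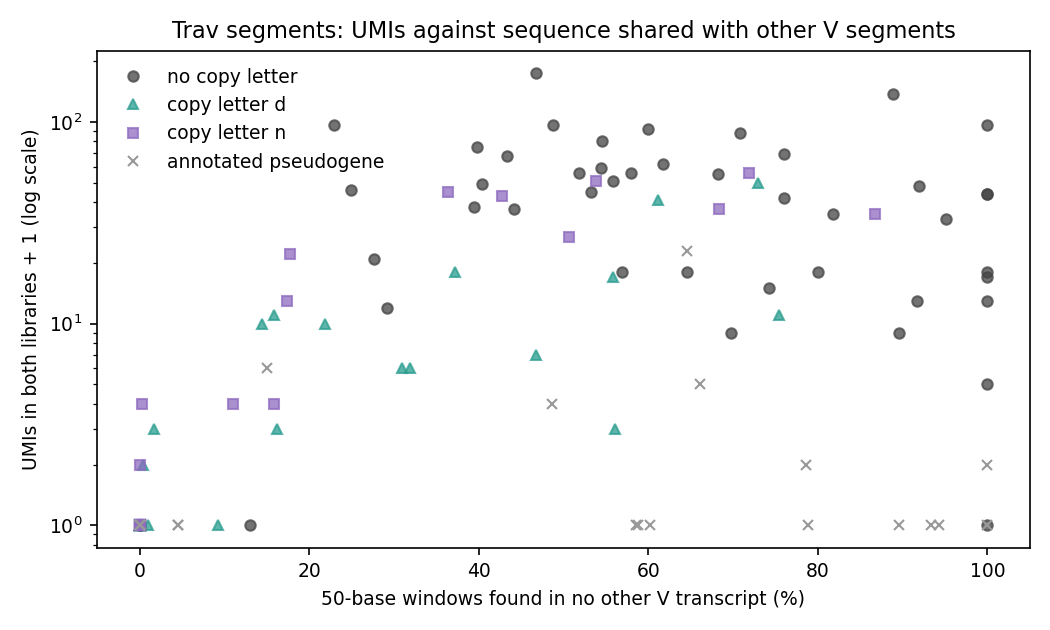
UMIs of each Trav segment over both libraries (vertical axis, UMIs plus 1, log scale) against the percent of its 50-base windows that are unique among the reference V transcripts, marked by copy (unmarked, d, n) with pseudogenes as crosses. Of the 36 functional segments at 0% unique windows, 35 lie at 0 UMIs.

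Some cells had UMIs of more than 1 segment of a locus. Among cells with at least 2 UMIs of a locus, a second Trbv was present in 26.5% of TG and 25.7% of WT cells, a second Trav in 40.8% and 39.8%, a second Tcrg-V in 40.5% and 48.1% and a second Trdv in 5.67% and 6.35%. Requiring at least 2 UMIs of the second segment, the shares were 8.38% of TG and 8.43% of WT cells for Trbv, 6.65% and 8.33% for Trav, 7.50% and 9.16% for Tcrg-V, and 0% and 1.59% for Trdv. Of the 218 TG and 116 WT cells with a second Trbv, 69 and 38 had at least 2 UMIs of it.

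The other genes of receptor assembly and signalling were given by count. Of 34 genes, 29 had at least 20 UMIs, of which 2 were at least 1.5-fold higher in TG by CPM, 5 at least 1.5-fold lower and 22 within the fold, beside 7.29% of all genes higher and 6.35% lower. The 2 were Tcrg-C2, a gamma constant gene, at 108 CPM in TG and 69.4 CPM in WT (ratio 1.55, 1.32 to 1.82), and Fyn, a kinase of proximal receptor signalling, at 147 and 94.2 CPM (1.56, 1.36 to 1.80). The 5 were all of the innate-like lineage list of 8 genes, and among them were Il17a at 362 CPM in TG and 821 CPM in WT (0.441, 0.415 to 0.468), Zbtb16 (0.512), Cd163l1 (0.562) and Il23r, the gene of an interleukin-23 receptor chain (0.627, 0.377 to 1.05). Trac (1.07) and the CD3 chain genes Cd3d (1.00), Cd3e (0.988) and Cd3g (1.03) were close to 1. Cd247, the remaining gene of the CD3 chain list, was lower within the fold (0.805, 0.727 to 0.891). The constant genes Trbc1 (1.48, 1.32 to 1.67) and Tcrg-C4 (1.49, 1.30 to 1.71) lay just under the fold. No UMI of Rag1, Rag2 or Ptcra, genes of receptor rearrangement in the thymus, was found in either library, and Dntt, which encodes the enzyme that adds bases at the junctions, had 3 UMIs in each.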

How the data were processed

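Live CD45+ colon cells of 1 TG and 1 WT library were counted with 5′ droplet chemistry, so reads start near the V segment of a receptor transcript. The authors deposited raw UMI counts for 32285 genes. Cell Ranger 5.0.0, Seurat 4.0 and mm10 are named, per the submitters' processing notes, without their roles; how multiply mapped reads were counted is not given in the sources used here. The deposited metadata give UMI counts, genes, percent of mitochondrial and immunoglobulin UMIs and cluster numbers per cell, per the file headers. They cover 7026 of 10143 TG and 6466 of 9855 WT barcodes.

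A cell was given, per locus, the V segment with most UMIs. Called means a usage ratio of at least 1.5 or its inverse, with at least 20 such cells over both libraries. Named were the 5 most used segments per locus, every called segment, the 3 most tilted each way between Cd8 and Cd4, and a fixed set of lineage segments (Trav1, Trav11, Trav11d, Trbv31, Trdv4 and the Tcrg-V genes); pair partners, Trbv12-1, Trbv13-3 and other segments set beside these were chosen after their values were seen. Members and lists were chosen with earlier results of these data known. With 1 library per genotype no test was possible. Segments were matched by identifier to GENCODE M21 (175 of 175), which gave sequences and unique 50-base windows. The automatic Scrublet threshold marked 1 TG and 0 WT barcodes as doublets and so did not work; none were removed, and leaving out the top 8% (811 TG and 788 WT barcodes) was an alternative. Python 3.11.15, numpy 2.4.6, scipy 1.17.1, pandas 2.3.3 and scanpy 1.11.5 were used, and the scripts were tested on simulated data. In the simulation of dominant segments, cells had more UMIs on average than most Trav and Tcrg-V cells here. The assignment of cells with few UMIs was therefore little tested. Values of 1 listed gene are not reported here. Alternatives are in the closing section.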

Additional observations from a re-analysis of the deposited data

Results flagged for a closer look

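The ratio of Trbv13-1 usage lay on opposite sides of 1 in a pair of finer clusters. The ratio of TG over WT was 6.21 (95% interval 2.75 to 17.3) in finer cluster 4, and 0.803 (0.300 to 2.15) in finer cluster 10. The interval in finer cluster 10 includes 1, so no lower usage is shown there, and the difference between the clusters was not tested.

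V segments also gave UMIs in barcodes that the comparisons do not use. Barcodes left out of the authors' metadata held 3706 V UMIs in TG and 4094 V UMIs in WT, which was 28.9% and 37.2% of the V UMIs of each library. Metadata cells outside clusters 2 and 4 held a further 567 V UMIs in TG and 370 in WT. Among the left-out barcodes, 88 of 3117 in TG and 56 of 3389 in WT had at least 2 CD3 UMIs and no B cell or myeloid marker UMI, at a median depth of 7322 UMIs in TG and 8092 UMIs in WT. Trbv13-1 was dominant in 8 of the 61 TG and 3 of the 40 WT barcodes among them with a dominant Trbv (13.1% and 7.50%; ratio 1.75, 0.420 to 10.2).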

How the results depend on the processing

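Over 48 values and 200 alternatives, 148 values stayed within the interval of the main value (counts within 1.5 times), 47 moved and 5 reversed. With 1 library per genotype, no library could be left out. No paired analysis was possible because each genotype has 1 library. The causes of the moves below were not tested. The ratio of the Tcrg-V share of cells was 0.798 with at least 2 UMIs of the locus and 0.785 after thinning. In the main setting, 8 of 46 segments were used more and 2 less in TG. The number of segments that reached the minimum changed with most settings, so the counts are not gains or losses within a fixed set. They were 13 and 16 of 72 by UMI sums, 5 and 7 of 59 by any cell with a UMI, and 12 and 10 of 69 with at least 10 cells. At 2-fold they were 3 and 0 of 46. Cluster 2 alone gave 4 and 1 of 21, and cluster 4 alone 2 and 2 of 25. With Trav copies summed by subgroup they were 4 and 2 of 42, and without the highest Scrublet scores 6 and 3 of 40. With each distinct pair counted 1 time, which covers Trav and Trbv only, they were 1 and 0 of 16. The finer clusters alone, the denominator without Trbv13-1 and the removal of the cells of 3 Trbv13-1 pairs were alternatives added after seeing the data. That removal gave 8 and 1 of 45. Trbv13-1 stayed at 1.5 or more in 10 of 12 alternatives. It was 5.08 in cluster 4 and 6.21 in finer cluster 4. Among the 10, the interval included 1 in cluster 2 (1.63, 0.866 to 3.30), finer cluster 6 (2.63, 0.595 to 24.0) and finer cluster 8 (2.23, 0.862 to 6.78). Trbv13-1 was at 1.28 with each pair counted 1 time, over cells with both chains only, and at 0.803 in finer cluster 10. Both of these intervals included 1 as well. Other reversals were Trbv2 at 1.23 and Trav14n-3 at 0.732 in cluster 2 alone, and Trav14-2 at 0.886 by UMI sums and 0.610 in cluster 4 alone. By UMI sums, Trdv4 was 85.6% of delta UMIs in TG and 87.4% in WT, and Tcrg-V1 27.2% of gamma UMIs in TG and 12.9% in WT. By CPM with no minimum beyond 1 UMI, 14 of 109 members were higher in TG and 55 lower. Of the 16599 genes, 3163 (19.1%) were higher and 2881 (17.4%) lower. At 2-fold with the minimum of 20 UMIs, 2 of 72 members were higher in TG and 16 lower. Of the 10857 genes, 230 (2.12%) were higher and 218 (2.01%) lower. Median-of-ratios scaling moved the median log2 ratio of all genes to 0.0174, and gave 6 members higher and 38 lower beside 7.64% and 6.03% of all genes. With at least 2 coreceptor UMIs, the ratio of Cd8 over Cd4 for Trbv13-1 in TG was 6.13. With at least 2 UMIs of the second segment, shares of cells with a second segment were 6.65% in TG and 8.33% in WT for Trav, 8.38% and 8.43% for Trbv, 0% and 1.59% for Trdv, and 7.50% and 9.16% for Tcrg-V. With at least 2 UMIs of each chain, distinct pairs were 79.4% of 209 TG cells and 86.9% of 175 WT cells, against 68.1% of 430 and 83.4% of 307 with at least 1. At this depth, 19 of 128 Trav segments had the 20 dominant cells needed for a comparison.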

Other observations

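UMIs were assigned to some V pseudogenes in these cells. Of the 34 annotated, 9 had a UMI in clusters 2 and 4. Trbv24 led, with 32 UMIs in 21 TG cells and 16 UMIs in 11 WT cells, and 100% of its 50-base windows are unique. Trav8-2 followed with 11 UMIs in each library, in 7 TG and 8 WT cells, and 64.6% of its windows are unique. The others had at most 3 UMIs in either library. Whether free RNA or reads of other copies gave these counts was not tested.

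Cells of clusters 2 and 4 with no V UMI numbered 402 in TG and 159 in WT. Their median depth was 1718 UMIs in TG and 1341 UMIs in WT, any CD3 chain was detected in 50.5% of TG and 40.9% of WT cells, and Gata3 in 25.9% and 27.7%.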
